A study of Homo sapiens with 6 samples.

Results

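Krüppel-like factors (KLFs) are zinc finger transcription factors, and the RNA of 10 of them (KLF2, KLF3, KLF4, KLF5, KLF6, KLF7, KLF9, KLF10, KLF11 and KLF13) was examined in OVCAR3, a widely used line of human ovarian cancer cells. The genes were taken by symbol from the 19973 genes counted by RNA-seq. A control group, shNC (genotype label WT, transfected with a control hairpin), was compared with shNUF2 (genotype label NUF2 knockdown, transfected with a hairpin against NUF2, a kinetochore protein needed for chromosome segregation), with 3 libraries per group. A single NUF2 hairpin was used, expressed from a U6 promoter on a vector with puromycin resistance, and whether the sequenced cells were a selected pool or a clone is not given in the sources used here.

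KLFs bind GC-rich DNA, chiefly GC boxes and CACCC boxes, through zinc fingers at the carboxyl terminus, and the related SP factors recognise much the same sequences. The amino-terminal regions differ: some KLFs mainly activate transcription, some recruit the corepressor CtBP, and some recruit SIN3A with its histone deacetylases. Several of them are immediate early genes with short-lived transcripts, and in epithelial tumours individual members have been described as growth-restraining or growth-promoting.

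The sequences upstream of 4 members are shown because members of the family can bind GC boxes in their own and each other's promoters, and because these 4 genes range from the largest to a small difference between the groups. They are the bases before the RefSeq transcription start (build GRCh38.p14), 5′ to 3′ on the strand of the gene, ending before any GENCODE release 29 exon of that gene. Capitals mark GC boxes (GGGCGG on either strand), CACCC boxes on either strand and, in KLF2, a MEF2 site. KLF2 lies on the plus strand and 241 bases are given (chr19:16324576-16324816). KLF6 lies on the minus strand with 178 bases (chr10:3785282-3785459). KLF4 lies on the minus strand with 250 bases (chr9:107489770-107490019), which fall in an intron of a longer annotated transcript. KLF13 lies on the plus strand with 250 bases (chr15:31326585-31326834), where the run of capitals over 6 letters is a GC box overlapping a CACCC box.
KLF2: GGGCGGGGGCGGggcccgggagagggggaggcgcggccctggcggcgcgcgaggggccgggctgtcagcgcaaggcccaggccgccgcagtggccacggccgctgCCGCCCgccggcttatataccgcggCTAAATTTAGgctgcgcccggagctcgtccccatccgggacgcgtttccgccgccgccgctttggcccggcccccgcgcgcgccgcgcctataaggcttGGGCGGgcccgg
KLF6: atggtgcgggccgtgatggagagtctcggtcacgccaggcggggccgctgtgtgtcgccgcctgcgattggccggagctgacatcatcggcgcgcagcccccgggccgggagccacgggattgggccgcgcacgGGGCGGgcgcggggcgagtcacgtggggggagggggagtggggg
KLF4: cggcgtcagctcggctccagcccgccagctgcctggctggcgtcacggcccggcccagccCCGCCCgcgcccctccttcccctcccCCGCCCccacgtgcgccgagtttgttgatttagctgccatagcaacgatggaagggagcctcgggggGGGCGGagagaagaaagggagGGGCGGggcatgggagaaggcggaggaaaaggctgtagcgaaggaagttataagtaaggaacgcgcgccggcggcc
KLF13: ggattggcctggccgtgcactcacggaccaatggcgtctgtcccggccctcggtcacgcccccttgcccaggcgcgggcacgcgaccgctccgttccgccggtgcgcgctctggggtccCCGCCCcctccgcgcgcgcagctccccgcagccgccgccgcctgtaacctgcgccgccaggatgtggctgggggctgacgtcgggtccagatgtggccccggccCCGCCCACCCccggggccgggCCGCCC

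The window of 250 bases before the start held 4 GC boxes in KLF2, 4 in KLF4, 3 in KLF13 and 2 in KLF6, of which 1 lies in the bases printed. Of the 10 members, 8 had windows that were used, 13 in all, and KLF3 and KLF10 had none. Member windows on chromosome 8, where KLF10 lies, were left out, while the set of all windows kept that chromosome. A GC box was present in 8 of the 13 windows (7 of the 8 members) and in 42.6% of all 35116 windows, and a CACCC box in 6 of the 13 (4 members) and in 54.7% of all windows. The MEF2 site of KLF2 began 120 bases before the start, and such a site was found in 1 of the 13 windows and in 2.8% of all windows. An E-box (CACGTG) was found in 4 of the 13 windows, 1 each of KLF4, KLF6, KLF7 and KLF11, and in 6.34% of all windows. A cAMP response element (TGACGTCA) was found in 1 of the 13 windows (KLF11) and in 1.65% of all, and a CArG box, the site of SRF, in 1 (KLF7) and in 1.16%. None of the 13 windows held an AP-1 site (TGANTCA) or a FOXO site (TGTTTAC), which were present in 6.57% and 2.98% of all windows. These are matches of letters in a short window, and binding was not measured.

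The knockdown and the libraries were checked before the KLFs were compared. NUF2 (ENSG00000143228) was covered by 903, 1096 and 1092 reads with shNC, against 281, 290 and 384 with shNUF2. The normalised count (CPM, the count relative to the TMM-scaled library size) was 65.2 ± 2.93 (SD, n = 3) and 22.9 ± 2.39 (SD, n = 3), a log2 fold change of -1.51 (SE 0.08, adjusted p = 2.17e-15 by the quasi-likelihood test of edgeR and the Benjamini-Hochberg method, which covered all genes tested). Total counts were 14115009 to 16995452 with shNC and 13057534 to 15227460 with shNUF2, and 14582 to 14691 and 15435 to 15536 genes had at least 1 read. Of 8 markers of ovarian cancer cells, 6 were expressed highly enough to be tested, while CLDN3 had 0 reads in every library and WT1 had 0 to 7. The lowest of these 6 were PAX8, at 10.1 CPM with shNC and 15.7 CPM with shNUF2, and EPCAM, at 3.39 and 5.45 CPM. At an adjusted p under 0.05, 4 of the 6 were higher and 2 lower, where 33.9% of all genes tested were higher and 33.8% lower. The epithelial keratin KRT8 was higher (log2 fold change 1.04), while the surface antigens MSLN and MUC16 were lower (-0.75 each). The summed level of the 8 markers was 875 to 935 CPM with shNC and 1107 to 1161 CPM with shNUF2. To this sum KRT8 gave 337 and 692 CPM, MSLN 391 and 233 CPM, and KRT18 107 and 157 CPM. The identity of the cell line rests on the labels and was not tested. Of 10 markers of blood, endothelial, stromal and muscle cells, 4 were tested, and the summed level of the 10 was 84.7 to 90.9 CPM with shNC and 68.0 to 76.0 CPM with shNUF2. CD3E, CD68 and LUM had 0 to 2 reads, and PTPRC, the leukocyte marker, had 0, 1 and 0 reads with shNC against 6, 11 and 6 with shNUF2. Of the endothelial markers, CDH5 had 1, 1 and 4 reads against 15, 19 and 27 and passed the filter on low counts through the shNUF2 group alone, while PECAM1 had 46, 24 and 49 reads against 28, 43 and 32, with overlap. The collagen gene COL1A1, at 81.7 and 62.4 CPM (log2 fold change -0.39), made up most of the sum and was lower, whereas DES, a muscle marker, was higher (0.82) and COL3A1 had 1, 0 and 2 reads against 15, 15 and 5. ACTA2, a smooth muscle actin, had 7, 7 and 3 reads against 3, 5 and 6, with overlap, so these markers had no common direction. The part of other cells in the KLF results was not tested.

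With shNUF2, 3 of the 10 members were higher by more than 1 on the log2 scale at an unadjusted p under 0.05 (KLF2, KLF6 and KLF7) and 0 were lower by as much. The same rule called 9.41% of the 12874 genes tested higher and 4.16% lower. At an adjusted p under 0.05 with no limit on the fold, 7 of 10 were higher (KLF10, KLF4, KLF11 and KLF13 in addition) and 0 were lower by edgeR's test, against 33.9% higher and 33.8% lower among all genes tested. In these 7 genes every shNUF2 library was above every shNC library, an arrangement seen in 35.2% of all genes, while the reverse was seen in 35.4%. In KLF3, KLF5 and KLF9 the groups overlapped. The median log2 fold change of the members was 0.44, and that of all genes tested was -0.01. DESeq2's Wald test gave the same counts of members, and all 10 passed the filter on low counts. In such bulk RNA a difference in the number of cells that express a gene and a difference in RNA per cell cannot be told apart.

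**Figure D1:**
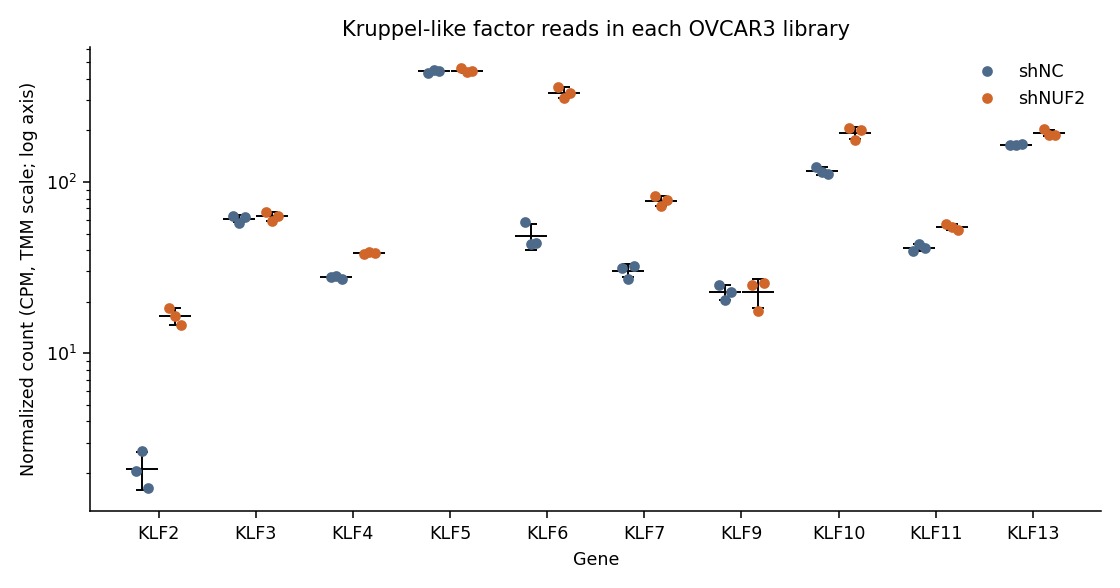
Normalised counts (CPM on the TMM scale, log axis) of the 10 KLF genes in each of the 3 shNC and 3 shNUF2 libraries, with points for libraries, horizontal lines for group means and bars for 1 SD. The 3 shNUF2 points of KLF2 and of KLF6 sit far above the shNC points, those of KLF7, KLF10, KLF4, KLF11 and KLF13 sit above without overlap, and those of KLF3, KLF5 and KLF9 overlap.

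Among the members that mainly activate transcription, KLF2 had the largest fitted fold change, with a 95% interval that overlapped that of KLF6. KLF2 (ENSG00000127528, 16324826-16328685 on chromosome 19, plus strand) maintains quiescence in endothelial cells and T cells. It was covered by 29, 43 and 28 reads with shNC, against 249, 214 and 220 with shNUF2. The normalised counts were 2.04, 2.69 and 1.63 CPM against 18.5, 16.5 and 14.6 CPM. The lowest shNUF2 library thus lay well above the highest shNC library. The means were 2.12 ± 0.536 CPM and 16.5 ± 1.92 CPM (SD, n = 3 each), a ratio of 7.80. This was a log2 fold change of 2.96 (SE 0.18, 95% interval 2.59 to 3.33), with an adjusted p of 7.54e-14 (edgeR's quasi-likelihood test). GENCODE names 4 KLF2 pseudogenes, and how reads shared with them were assigned is not given in the sources used here, so the level of KLF2 is uncertain to that extent. The same holds for KLF4 and KLF7, with 1 named pseudogene each.

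KLF6 (ENSG00000067082, 3775996-3785281 on chromosome 10, minus strand), an immediate early gene described as a tumour suppressor, showed a change of similar size at a much higher read number. It was covered by 828, 693 and 758 reads with shNC, against 4834, 4032 and 4975 with shNUF2. The normalised counts were 58.2, 43.3 and 44.0 CPM against 358, 310 and 331 CPM, so that the groups were separated by a wide gap. The means were 48.5 ± 8.39 CPM and 333 ± 24.3 CPM (SD, n = 3 each), a ratio of 6.86. The fitted log2 fold change was 2.79 (SE 0.07, 95% interval 2.63 to 2.94, adjusted p = 2.09e-21 by edgeR's quasi-likelihood test). GENCODE names no KLF6 pseudogene and no gene that overlaps its exons.

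KLF7 (ENSG00000118263, 207074137-207167267 on chromosome 2, minus strand), known for its part in the outgrowth of neurons, is the closest relative of KLF6 in the family and had a smaller fold change. It was covered by 450, 436 and 553 reads with shNC, against 1118, 937 and 1174 with shNUF2, or 31.6, 27.3 and 32.1 CPM against 82.9, 72.1 and 78.0 CPM. All 3 shNUF2 libraries were above all 3 shNC libraries. The means of 30.3 ± 2.68 and 77.7 ± 5.43 CPM (SD, n = 3 each) had a ratio of 2.56. On the log2 scale the change was 1.36 (SE 0.07, 95% interval 1.21 to 1.50, adjusted p = 4.86e-15 by edgeR's quasi-likelihood test).

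KLF4, which takes part in the reprogramming of cells to pluripotency and in the differentiation of epithelia, had a smaller fold change than its relative KLF2. KLF4 (107484852-107490482 on chromosome 9, minus strand) was covered by 396, 449 and 467 reads with shNC, against 512, 507 and 581 with shNUF2. The normalised counts lay in narrow ranges, at 27.8, 28.1 and 27.1 CPM and at 38.0, 39.0 and 38.6 CPM, and did not overlap. This was a log2 fold change of 0.48 (SE 0.08, 95% interval 0.32 to 0.63, adjusted p = 4.33e-06 by edgeR's quasi-likelihood test), a ratio of 1.39.

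KLF5, a factor of proliferating epithelial cells, was the most abundant member. KLF5 (73054976-73077541 on chromosome 13, plus strand) had 433, 448 and 445 CPM with shNC and 460, 437 and 445 CPM with shNUF2. The libraries of the groups were intermingled. The fitted log2 fold change was 0.02 (SE 0.04), and its 95% interval of -0.07 to 0.10 bounds the difference closely (adjusted p = 0.726, edgeR's quasi-likelihood test).

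The members that recruit SIN3A were higher by less than 1 on the log2 scale or did not pass the test. KLF10 (102648784-102655725 on chromosome 8, minus strand), identified as an early gene induced by TGF-beta, was covered by 1750, 1838 and 1910 reads with shNC, against 2791, 2278 and 3010 with shNUF2. The normalised counts of 123, 115 and 111 CPM were all below those of 207, 175 and 200 CPM. Its log2 fold change was 0.74 (SE 0.06, 95% interval 0.63 to 0.85, adjusted p = 5.84e-12 by edgeR's quasi-likelihood test). KLF11 (10042849-10054836 on chromosome 2, plus strand), the other early gene induced by TGF-beta in the family, rose from 39.5, 43.3 and 41.4 CPM to 56.7, 54.8 and 52.4 CPM without overlap. Its log2 fold change was 0.40 (SE 0.07, adjusted p = 8.06e-06 by edgeR's quasi-likelihood test). An antisense gene overlaps 416 bases of the KLF11 exons, and whether reads were counted by strand is not given in the sources used here.

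KLF13 (31326835-31435665 on chromosome 15, plus strand), which activates the chemokine gene CCL5 in T cells, had the smallest difference that passed the test. It had 164, 164 and 166 CPM with shNC and 204, 188 and 189 CPM with shNUF2. This was a log2 fold change of 0.23 (SE 0.05, 95% interval 0.14 to 0.33, adjusted p = 6.28e-05 by edgeR's quasi-likelihood test). KLF9 (70384597-70414624 on chromosome 9, minus strand), a gene induced by glucocorticoids and thyroid hormone, had 25.1, 20.4 and 22.7 CPM with shNC and 24.9, 17.7 and 25.8 CPM with shNUF2. The groups overlapped, and KLF9 had the widest interval of the 3 members that did not pass. The fitted log2 fold change was 0.01 (SE 0.12, 95% interval -0.23 to 0.25, adjusted p = 0.939 by edgeR's quasi-likelihood test).

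KLF3 (38664197-38701517 on chromosome 4, plus strand) was the only member examined that represses through CtBP. It had 63.0, 57.9 and 62.6 CPM with shNC and 67.0, 58.8 and 63.3 CPM with shNUF2, and the groups overlapped. Its log2 fold change was 0.04 (SE 0.06, 95% interval -0.08 to 0.17, adjusted p = 0.542 by edgeR's quasi-likelihood test). The antisense gene KLF3-AS1 overlaps 266 bases of its exons and GENCODE names 2 KLF3 pseudogenes, so reads may have been shared.

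**Figure D2:**
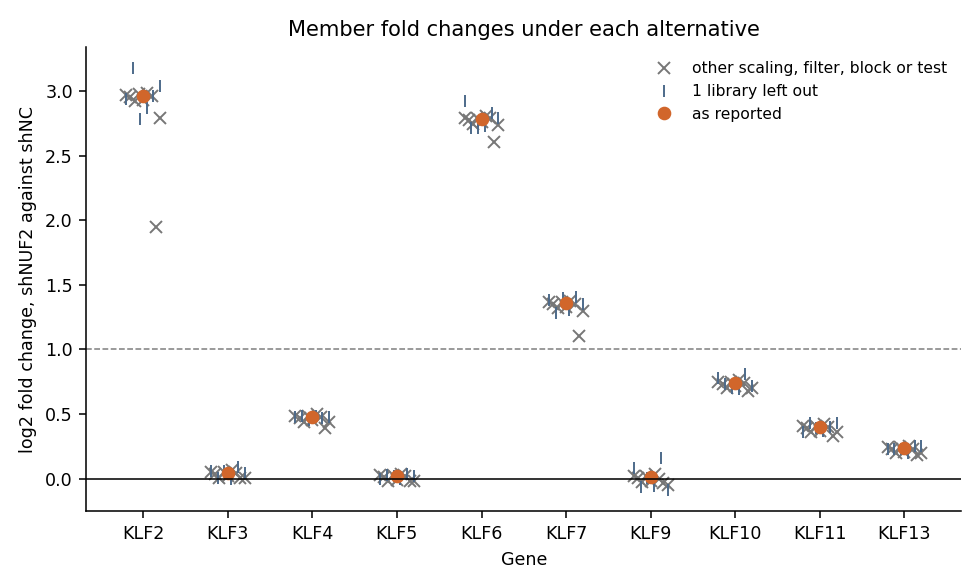
Log2 fold change (shNUF2 against shNC) of each KLF gene as reported (filled circles), under other scalings, filters, tests or the replicate block (crosses) and with 1 library left out (ticks). KLF2 ranged from 1.95 to 3.17, KLF6 from 2.61 to 2.93 and KLF7 from 1.10 to 1.41, all above the dashed line at 1, while KLF3, KLF5 and KLF9 lay around 0.

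Levels were compared between genes per length, as RPKM, the CPM on the TMM scale divided by the gene length in kilobases. With shNC the order was led by KLF5 at 120 ± 2.20 RPKM (SD, n = 3), followed by KLF10 at 30.4 and KLF13 at 17.5, each apart from the next. KLF3 at 9.03, KLF11 at 9.01, KLF6 at 7.90 and KLF4 at 7.56 RPKM came next, and each of these overlapped its neighbour in the order. KLF9 at 4.39, KLF7 at 3.28 and KLF2 at 0.751 RPKM were the lowest, without overlap between neighbours. In the control cells KLF2 was therefore the scarcest of the 10 transcripts.

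With shNUF2 KLF5 was still the highest at 122 ± 3.21 RPKM (SD, n = 3). KLF6 had moved from the sixth place to the second at 54.2 ± 3.95 RPKM and overlapped KLF10 at 50.8 ± 4.37 RPKM. KLF13 at 20.5, KLF11 at 11.9, KLF4 at 10.5 and KLF3 at 9.31 RPKM followed, and KLF3 overlapped KLF7 at 8.38 RPKM. KLF2 at 5.86 RPKM now stood above KLF9 at 4.40 RPKM, which had become the lowest. The share of KLF5 in the summed RPKM of the 10 members was 57.2% with shNC and 40.9% with shNUF2, and that of KLF6 was 3.76% and 18.2%. The sum was 210 ± 1.20 and 298 ± 14.4 RPKM (SD, n = 3 each), a ratio of 1.42. Without KLF6 the sum was 202 ± 0.658 and 243 ± 10.4 RPKM.

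**Figure D3:**
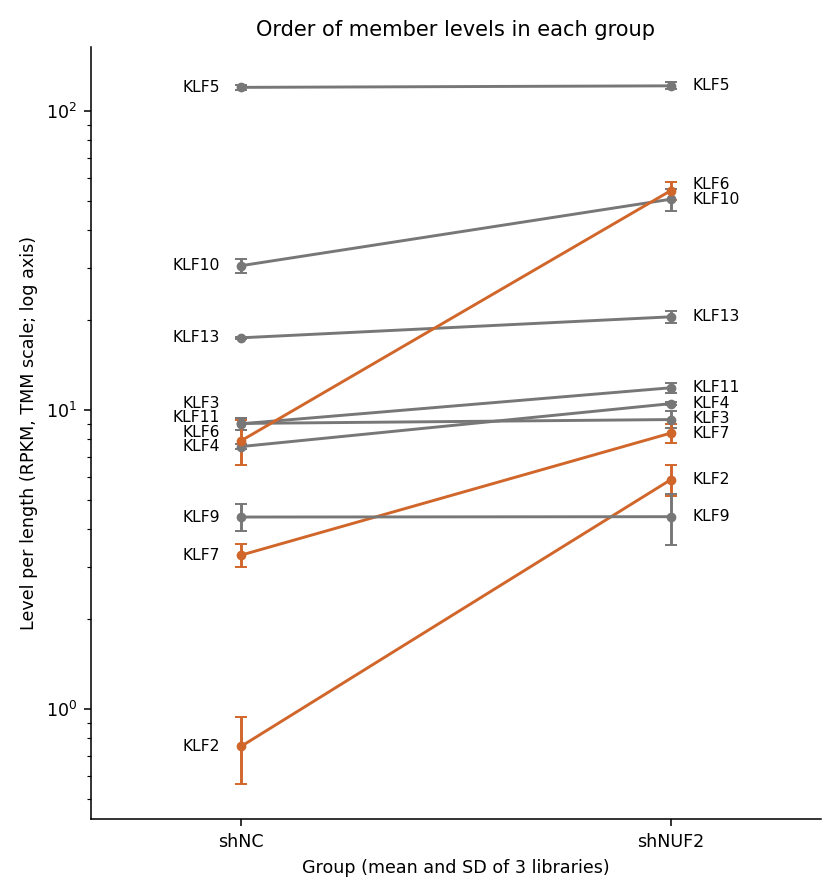
Level per length (RPKM on the TMM scale, log axis) of each KLF gene in shNC and shNUF2, with points for the mean and bars for the SD of 3 libraries and coloured lines for KLF2, KLF6 and KLF7. KLF5 stays at the top at 120 and 122 RPKM, KLF6 rises from 7.90 to 54.2 and KLF2 from 0.751 to 5.86 RPKM.

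Ratios of members within the same library, which no scaling between libraries can move, were formed for 5 pairs from counts per length. KLF2 stood at 0.0951, 0.124 and 0.0779 of KLF4 with shNC and at 0.632, 0.548 and 0.492 with shNUF2, a difference in the mean log2 ratio of 2.51. KLF6 stood at 2.78, 2.40 and 2.07 times KLF7 with shNC and at 6.52, 6.49 and 6.39 times with shNUF2, a difference of 1.43. Against KLF5, KLF6 stood at 0.0806, 0.0579 and 0.0593 and then at 0.467, 0.425 and 0.446, a difference of 2.77. In each of these 3 pairs the ratios of the groups did not overlap. KLF10 against KLF11 was 3.74, 3.19 and 3.23 with shNC and 4.39, 3.85 and 4.59 with shNUF2, a smaller difference of 0.34 that also showed no overlap. For these 4 pairs the two-sided exact permutation test gave p = 0.1, the smallest that 3 against 3 libraries allow, and an adjusted p of 0.125 over the 5 pairs. KLF9 against KLF13 was 0.279, 0.226 and 0.250 with shNC and 0.223, 0.171 and 0.249 with shNUF2, with overlap (difference -0.24, exact permutation p = 0.2).

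Among the other 7 KLF genes, 3 were tested. KLF16, which also recruits SIN3A, was higher by 0.45 on the log2 scale (SE 0.11, adjusted p = 0.000651 by edgeR's quasi-likelihood test), and KLF12, which like KLF3 recruits CtBP, was lower (log2 fold change -0.21). KLF15 had a log2 fold change of -0.66 on 43, 26 and 18 reads against 20, 11 and 18 and did not pass (adjusted p = 0.135 by edgeR's quasi-likelihood test). KLF1, KLF8, KLF14 and KLF17 had 0 to 11 reads per library and were not tested. Of the 9 SP factors, 6 were tested and 0 passed the limit on the fold, where 9.41% of all genes were higher and 4.16% lower. SP1, the most studied activator of GC box promoters, was covered by 4946, 5692 and 6109 reads with shNC, against 3606, 3227 and 3785 with shNUF2. It was lower in all 3 shNUF2 libraries, with a log2 fold change of -0.46 (SE 0.04, adjusted p = 3.28e-10 by edgeR's quasi-likelihood test). SP2 was also lower at -0.46, while SP4 at 0.65, SP6 at 0.51 and SP3 at 0.23 were higher at an adjusted p under 0.05, a rule by which 33.9% of all genes were higher and 33.8% lower. The median of the 6 was -0.12, and 0.23 without SP5, which passed the filter on low counts through the shNC group alone.

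**Figure D4:**
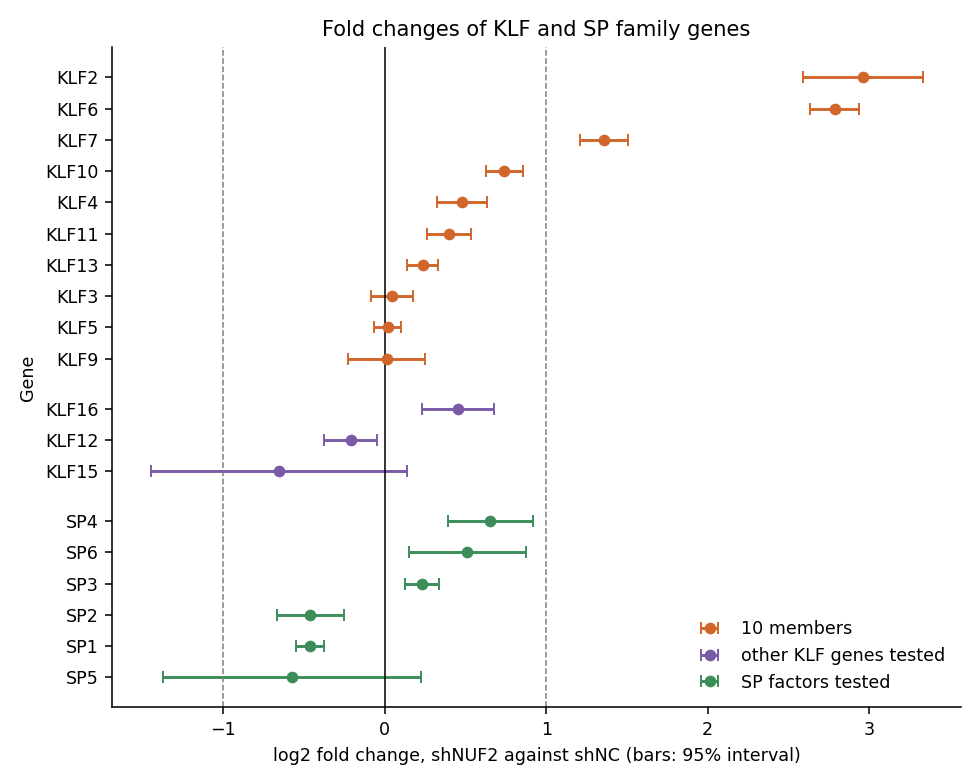
Log2 fold change (shNUF2 against shNC; points) with its 95% interval (bars) for the 10 KLF genes, the other KLF genes tested and the SP factors tested, with dashed lines at the limits of 1 and -1. Only KLF2, KLF6 and KLF7 of the genes plotted lie wholly above 1, while SP1 and SP2 at -0.46 lie below 0.

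The RNAs of 11 cofactors with which KLFs act were compared in the same way. None of the 11 passed the limit on the fold, which 9.41% of all genes passed as higher and 4.16% as lower, and at an adjusted p under 0.05 there were 4 higher and 3 lower (median log2 fold change -0.08), where the shares over all genes were 33.9% and 33.8%. HDAC3, a histone deacetylase, had the smallest p of these, with 738, 755 and 871 reads against 1280, 1155 and 1380 and a log2 fold change of 0.88 (SE 0.06, adjusted p = 3.54e-13 by edgeR's quasi-likelihood test). HDAC1 was also higher at 0.48, SIN3B at 0.28 and SIN3A at 0.14, the last with overlap of the groups. CTBP1, which encodes the corepressor used by KLF3 and KLF12, was lower at -0.54, and CTBP2 had -0.16 and CREBBP, a histone acetyltransferase, -0.19. Of 8 genes for the turnover of KLF proteins, mostly ubiquitin ligases, 0 passed the limit on the fold and 3 were higher and 1 lower at an adjusted p under 0.05, against the same shares over all genes. SMURF1, a ubiquitin ligase, had 498, 449 and 599 reads against 813, 758 and 767 and a log2 fold change of 0.79 (SE 0.08, adjusted p = 3.62e-09 by edgeR's quasi-likelihood test). BAP1, a deubiquitinase described to stabilise KLF5, was the lower member at -0.28.

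KLF2 and KLF4 are induced through a kinase cascade that ends in ERK5 and the MEF2 factors, and are held down by the cerebral cavernous malformation proteins. Of 13 such upstream genes, MEF2C passed the filter on low counts through the shNUF2 group alone. Of the other 12, 1 passed the limit on the fold and was higher, and at an adjusted p under 0.05 there were 7 higher and 2 lower (median 0.32). Over all genes the shares were 9.41% higher past the limit, and 33.9% higher and 33.8% lower at an adjusted p under 0.05. MAPK7, the gene of ERK5, was covered by 304, 310 and 335 reads with shNC, against 618, 532 and 715 with shNUF2, a log2 fold change of 1.16 (SE 0.08, adjusted p = 3.31e-12 by edgeR's quasi-likelihood test). MEF2C was scarce, with 5, 1 and 4 reads against 16, 29 and 14, and is given as reads without a test. The more abundant MEF2D was higher at 0.67, and the kinase gene upstream of MAPK7, MAP2K5, was lower at -0.59. Of the FOXO factors listed, FOXO3 was higher at 0.90 and FOXO1 at 0.27, while FOXO4 had 0.098 and did not pass. MEF2A was lower at -0.22. Of the cerebral cavernous malformation genes and their receptor partner, CCM2 was higher at 0.42, PDCD10 at 0.38 and HEG1 at 0.38, while KRIT1 had -0.33 and did not pass. The genes of the activating cascade that passed differed in both directions.

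In the TGF-beta pathway, which induces KLF10 and KLF11, 2 of 11 genes passed the limit on the fold, both higher, where 9.41% of all genes were higher and 4.16% lower by this rule. At an adjusted p under 0.05, 7 were higher and 3 lower (median 0.23), against 33.9% and 33.8% of all genes. SMAD3, a receptor-activated signal transducer, was covered by 618, 623 and 702 reads with shNC, against 1576, 1362 and 1541 with shNUF2, a log2 fold change of 1.40 (SE 0.06, adjusted p = 1.13e-16 by edgeR's quasi-likelihood test). TGFB1, a ligand and a described KLF6 target, had 2027, 1741 and 2044 reads against 4266, 3949 and 4391, a log2 fold change of 1.30 (SE 0.06, adjusted p = 6.22e-16 by edgeR's quasi-likelihood test). In both genes the groups did not overlap. The lower genes were SMAD2 at -0.68, SMAD4 at -0.17 and SKIL, a repressor of SMAD signalling, at -0.17. Of 5 glucocorticoid response genes tested, the class to which KLF9 belongs, 0 passed the limit on the fold, and 4 were higher and 1 lower at an adjusted p under 0.05, against the same shares over all genes. PER1, a clock gene, was higher at 0.61 (SE 0.06, adjusted p = 2.78e-10 by edgeR's quasi-likelihood test) and FKBP5, a chaperone of the receptor, was lower at -0.93.

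Described targets of KLF2 and KLF4 differed in both directions. Of 13 listed, 8 were tested, but NOS3 and SELE passed the filter on low counts through the shNUF2 group alone, where they were high, and are given as reads without a test. Of the other 6, 3 were higher and 1 lower past the limit on the fold, and 4 were higher and 1 lower at an adjusted p under 0.05 (median 0.86). The shares over all genes were 9.41% and 4.16% by the former rule and 33.9% and 33.8% by the latter. THBD, which encodes the anticoagulant thrombomodulin and is activated by KLF2, was covered by 174, 160 and 156 reads with shNC, against 430, 287 and 494 with shNUF2, a log2 fold change of 1.48 (SE 0.13, adjusted p = 2.39e-10 by edgeR's quasi-likelihood test). S1PR1, a sphingosine phosphate receptor that KLF2 activates in T cells, had 10, 17 and 13 reads against 43, 86 and 93, a log2 fold change of 2.65 (SE 0.32, adjusted p = 4.67e-08 by edgeR's quasi-likelihood test). NOS3, the endothelial nitric oxide synthase, had 5, 6 and 3 reads against 33, 38 and 42. All 3 are known as activated targets.

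EDN1, which encodes endothelin and is repressed by KLF2 in endothelial cells, was also higher, with 162, 162 and 187 reads against 364, 275 and 303 and a log2 fold change of 1.08 (SE 0.12, adjusted p = 1.3e-08 by edgeR's quasi-likelihood test). SELE, the gene of E-selectin and likewise a repressed target, had 0 reads in the 3 shNC libraries and 22, 13 and 18 with shNUF2. EDN1 and THBD, of opposite kinds among the described targets, were thus both higher. ALPI, an intestinal alkaline phosphatase activated by KLF4, was covered by 997, 978 and 1137 reads with shNC, against 109, 85 and 116 with shNUF2, and its log2 fold change of -3.14 (SE 0.09, adjusted p = 3.08e-20 by edgeR's quasi-likelihood test) was opposite to that of KLF4. ALPI has near-identical paralogs, so its reads are uncertain, and the paralogs ALPP and ALPG were lower as well, at -1.99 and -1.87. CDKN1A, a cell cycle inhibitor that KLF4 activates, was higher, as KLF4 was, at 0.65 (SE 0.05, adjusted p = 2.58e-11 by edgeR's quasi-likelihood test). The epithelial targets IVL, SPRR1A, KRT13 and KRT19, and VCAM1, had 0 to 8 reads and were not tested. CDH1, the gene of E-cadherin and a described KLF4 target, had 14, 33 and 19 reads against 14, 9 and 12, a log2 fold change of -0.72 that did not pass (SE 0.40, adjusted p = 0.118 by edgeR's quasi-likelihood test).

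Of 11 described targets of KLF5 and KLF6, FGFBP1 passed the filter on low counts through the shNUF2 group alone and had overlapping groups. Of the other 10, 2 passed the limit on the fold, both higher, where 9.41% of all genes were higher and 4.16% lower. At an adjusted p under 0.05, 6 were higher and 3 lower (median 0.13), against 33.9% and 33.8% of all genes. The 2 past the limit were TGFB1, given above, and PLAU, which encodes urokinase, with 119, 135 and 217 reads against 298, 310 and 361 and a log2 fold change of 1.24 (SE 0.13, adjusted p = 3.9e-09 by edgeR's quasi-likelihood test). CDKN1A, described as a KLF6 target too, is given above. CCND1, the gene of cyclin D1 and a target that KLF5 activates, was lower at -0.70 and PDGFA, a growth factor gene, at -0.59, while ENG, a TGF-beta coreceptor that KLF6 activates, was lower at -0.30. In the same list BIRC5 was higher at 0.28, TGFBR1 at 0.14 and CCNB1 at 0.12, and EGFR had 0.07 and did not pass.

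**Figure D5:**
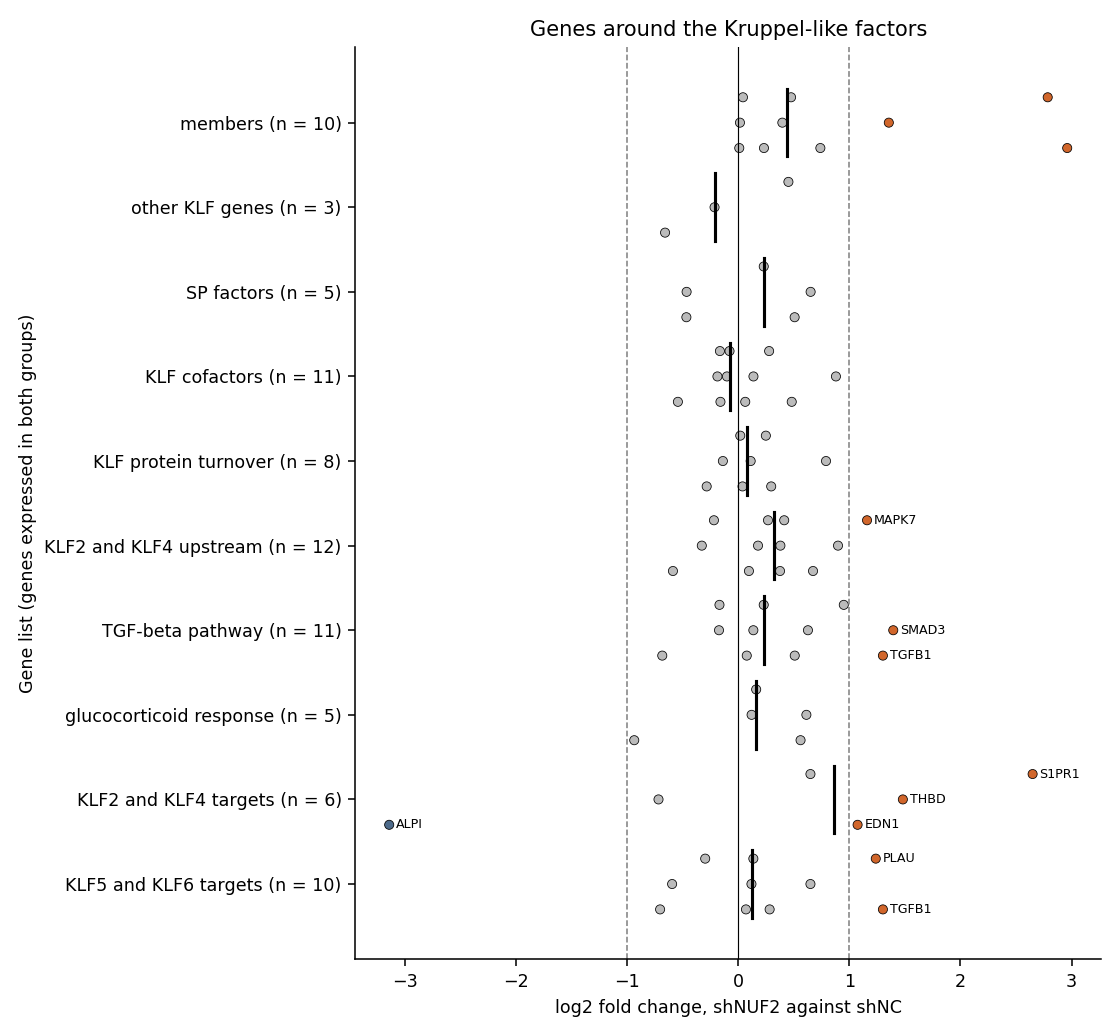
Log2 fold change (shNUF2 against shNC) of each gene that passed the filter on low counts in both groups, in the KLF list and 9 lists of related genes, with 1 point per gene, a black bar at the list median, dashed lines at 1 and -1, and coloured, labelled points for genes past the limit (those of the KLF list are named in the other plots). The median of the KLF genes is 0.44, and ALPI at -3.14 is the only labelled gene below -1.

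The neighbours of the members on the chromosome were compared with the members themselves. The nearest tested genes of KLF2 were EPS15L1, 26.6 kb away at a log2 fold change of 0.45, and AP1M1, 78.9 kb away at 0.97. KLF6 lies in a sparse region, where PITRM1 at 603.2 kb had 0.19 and AKR1C1 at 1178.0 kb had -0.64. Next to KLF7, FASTKD2 at 277.9 kb and CREB1 at 362.5 kb were lower at -0.65 and -0.36. None of these 6 neighbours passed the limit on the fold that KLF2, KLF6 and KLF7 passed. Of the 20 neighbours of all members, 1 passed it, which was GRHL1 at 1.46, 40.6 kb from KLF11, where 9.41% of all genes passed it as higher and 4.16% as lower. At an adjusted p under 0.05, 12 of the 20 were higher, both neighbours of KLF2 among them, and 5 were lower, against 33.9% and 33.8% of all genes.

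The pentamer ATTTA, the core of AU-rich elements that shorten the life of a transcript, was counted in the longest annotated 3′ untranslated region of each member. KLF2 had 3.56 per kb, at percentile 81.1 of the 12515 genes compared, which rests on 3 pentamers in 843 bases. KLF5 had 3.02 per kb (percentile 74.0) and KLF7 2.83 (percentile 71.3). KLF6 had 1.69 per kb (percentile 50.6) and KLF13 had the fewest at 0.893 (percentile 35.4). The median of the members was 2.37 per kb and that of all genes compared was 1.66.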

How the data were processed

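RNA of OVCAR3 cells with shNC or shNUF2 was sequenced by the authors on an Illumina NovaSeq after TruSeq Stranded mRNA preparation, in 3 libraries per group. The authors deposited read counts per gene without normalization. The authors also deposited FPKM values, which match the count divided by gene length and library total with deviations of up to 2.71e-07 relative to the value. Submitters' processing notes name cutadapt, HISAT, HTSeq and build GRCh38.p13. Their versions, the annotation release, the strand setting and the treatment of reads that match several genes are not given in the sources used here. Positions are those of the deposited table.

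Genes were kept by filterByExpr (12874 of 19973, 16861 with any read), scaled by TMM and compared by edgeR 4.0.16 (R 4.3.3) with the quasi-likelihood test on all 6 libraries without covariates. The Benjamini-Hochberg adjustment covered all genes tested. The call was a log2 fold change beyond 1 with an unadjusted p under 0.05, and an adjusted p under 0.05 was a second rule. Intervals are 95% intervals of the fitted fold change. List counts were also taken over genes that reached the CPM minimum of the filter in every library of both groups, a step added after values were seen. On simulated counts for shNUF2 against shNC, edgeR recovered 194 of 200 changed genes among 12768 with 6 unchanged genes called, DESeq2 1.42.0 recovered 192 and limma 3.58.1 on log2(FPKM + 1) recovered 190.

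Groups and replicate numbers came from the sample labels. No libraries were duplicates, since counts within a group differed by a chi-square of 2.62 to 4.25 per degree of freedom. The labels do not say whether libraries come from separate cultures, so p-values measure the spread between these libraries, which may be technical. Libraries with the same number correlated at 0.02, 0.00 and -0.03 after removal of group means, so the numbers were not treated as pairs. Total counts limit the precision of scarce genes.

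The members, gene lists, pairs and tests were chosen with earlier results of these data known. The genes named are the 10 members, NUF2 and, in each list, up to 4 genes past the call with the smallest p or, where none passed, the gene with the smallest p. Other genes, and the analyses of motifs, neighbours and ATTTA, were chosen after values were seen. Upstream and motif sequences are those of RefSeq (GRCh38.p14), and exons, pseudogenes and untranslated regions those of GENCODE release 29 on GRCh38. Motifs were sought on both strands, and MEF2 and CArG sites by their usual consensus. Python 3.11.15 was used with pandas 2.3.3, numpy 2.4.6 and matplotlib 3.10.9. The alternatives were other scalings (DESeq2 size factors, upper quartile, library totals), the DESeq2 Wald test, no filter or at least 1 CPM in every library, a block for replicate number, leaving out each library, limma on log2(FPKM + 1) or log2(FPKM + 0.1), and edgeR's TREAT test.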

Additional observations from a re-analysis of the deposited data

How the results depend on the processing

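The counts of members past the limit on the fold, 3 higher and 0 lower, were the same under every alternative run. Those at an adjusted p under 0.05, 7 higher and 0 lower, were the same under every alternative run for them, which did not include the TREAT test. KLF2 had its lowest log2 fold change, 1.95, with limma on log2(FPKM + 1), where the pseudocount is large beside its level in shNC. In that setting KLF6 had 2.61, so the order of KLF2 and KLF6 was reversed. The fold change of NUF2 lay between -1.60 and -1.42. The counts over all genes, 1212 higher and 536 lower, depended more on the method. With at least 1 CPM in every library, where fewer genes were tested, 756 were higher. Without a filter, where more genes were tested, 1770 were higher and 634 lower. With limma on log2(FPKM + 1) there were 430 higher and 206 lower, and with edgeR's TREAT test 680 and 211, a test that asks for more than a fold past the limit. The 3 members whose groups overlapped changed sign in some settings, always close to 0. KLF3 ranged from -0.00179 to 0.0891 with 1 library left out. KLF5 was -0.0205 with library totals only, -0.00959 without a filter, -0.0201 with limma on log2(FPKM + 1), -0.0203 on log2(FPKM + 0.1) and -0.00497 to 0.0324 with 1 library left out. KLF9 was -0.0270 with library totals only, -0.0156 without a filter, -0.0368 with limma on log2(FPKM + 1), -0.0467 on log2(FPKM + 0.1) and -0.0904 to 0.159 with 1 library left out.

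A fit with a replicate block called 1207 genes higher and 536 lower, and 3 and 7 members by the respective rules. In it NUF2 was at -1.51 and KLF9 at -0.00138. The numbers share no stated batch and the block changed no call of a member. Depth limits the statements on scarce genes such as MEF2C, SELE and the untested KLF genes, and single-value exact tests cannot go below p = 0.1 with 3 against 3 libraries.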
